A study of Mus musculus with 12 samples.

Results

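The Id genes (Id1, Id2, Id3 and Id4) encode inhibitors of DNA binding, and they were followed here through the sphere culture of mouse astrocytes and in brain-derived neural progenitor preparations. They were taken by gene name from the deposited expression table, in which all 4 members were found among 55862 genes, and all 4 passed the filter on low values in every comparison. The 4 groups of 3 samples each were sequenced as bulk RNA, all labelled as brain from the C57BL/6 strain with no genetic change. ASTs were primary astrocytes of the cerebral cortex of mice at postnatal days 1 to 2, grown as a monolayer in medium with serum and taken at day 0. A-iSCs were ASTs kept as spheres on agarose for 5 days. The NPC groups came from C57BL/6J mice according to the methods. For P56-NPCs the subependymal zone of adult mice (day 56 after birth in the label) was dissociated, and for P0-NPCs the hippocampus of newborn mice (day 0 after birth). The methods describe no sorting of either NPC preparation, so each may hold other cell types of the dissected tissue. Nothing in the labels ties the 3 samples of a group to separate animals or cultures, so the p-values measure only the spread between these samples.

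Id proteins have a helix-loop-helix domain but lack the basic region with which related factors touch DNA. They bind the E proteins (Tcf3, Tcf4 and Tcf12), the common partners of tissue-specific basic helix-loop-helix (bHLH) factors such as the neurogenic ones, and keep them from acting at E-boxes. In the nervous system they are known for holding back neuronal differentiation, for maintaining stem cells and for astrocyte formation downstream of bone morphogenetic protein (BMP) signalling, whose Smad proteins switch Id genes on directly. They have also been linked to Rap1gap, a GTPase-activating protein that turns off the adhesion regulator Rap1. The study also measured Id1, Id2 and Id3 by RT-PCR, counting them with Rap1gap among genes of the Rap1 pathway.

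The primers of those RT-PCR assays are shown because they mark which piece of each Id transcript was read, and they are printed in lower case as no part of them is singled out.
Id1 forward: cctagctgttcgctgaaggc
Id1 reverse: ctccgacagaccaagtaccac
Id2 forward: atgaaagccttcagtccggtg
Id2 reverse: agcagactcatcgggtcgt
Id3 forward: tgtcgtccaagaggctaagag
Id3 reverse: tgctacgaggcggtgtgctg
Each primer matched the transcripts of its own gene and of no other in GENCODE M21, with all bases identical. The Id1 pair spanned 60 bases of coding sequence in exon 1 (GRCm38, chr2:152736380-152736439). The Id2 pair spanned 107 bases of coding sequence (chr12:25095904-25096010), which lie in exon 1 or exon 2 depending on the transcript. The Id3 pair spanned 103 bases of coding sequence in exon 1 (chr4:136143906-136144008), and of this pair the primer listed as reverse matched the sense strand. No Id4 pair was listed. All 3 stretches lie within single exons, so each of them is shared by the spliced RNA and by genomic DNA.

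On GRCm38 the Id genes lie on 4 different chromosomes. Id1 (ENSMUSG00000042745) lies on the plus strand at chr2:152736251-152737410. Id2 (ENSMUSG00000020644) lies on the minus strand at chr12:25093799-25097140. Id3 (ENSMUSG00000007872) lies on the plus strand at chr4:136143497-136145755. Id4 (ENSMUSG00000021379) lies on the plus strand at chr13:48261228-48266026. No other annotated gene overlaps Id1, Id2 or Id3. Id4 is overlapped on the opposite strand by A330033J07Rik and Gm49291, whose levels reached at most 0.465 and 0.63 FPKM in any sample. Whether the counting used strand is not given in the sources used here, so reads of Id4 and of these genes could be mixed, at levels far under those of Id4.

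Levels are given in FPKM as deposited, a fragment count divided by the length of the gene and by a library size that was already scaled between samples. Between 17077780 and 24452419 fragments were counted per sample, and 3 fragments on a gene of 1 kilobase corresponded to 0.103 to 0.187 FPKM. Every Id value rested on far more than that, from 258 fragments (Id1 in a P56-NPC sample) to 12191 (Id3). The share of mitochondrial fragments was 16.5 to 17.6% in P56-NPCs and 2.94 to 7.03% in all other samples. The 8 astrocyte markers were all above 1 FPKM on average in every group, but their sum was lowest in ASTs (143 to 161 FPKM, against 1211 to 2466 in A-iSCs). The sum of the 7 neural stem or progenitor markers was lowest in P56-NPCs (228 to 251 FPKM) and highest in ASTs (2599 to 3570), and most of the AST sum was Vim (1908 to 2724 FPKM). Nes ranked the groups as Vim did, while other members ranked differently, Sox2 being highest in A-iSCs (180 to 234 FPKM), Hes5 in P56-NPCs (15.5 to 24.3) and Fabp7 in P0-NPCs (589 to 704). The oligodendrocyte markers Mbp, Mog, Mag and Mobp summed to 7965 to 8944 FPKM in P56-NPCs and to at most 5.59 FPKM in the other groups, and this strong signal is of another cell type than the P56-NPC label names. Sums of microglial markers were 1331 to 1679 FPKM in A-iSCs, 618 to 657 in P56-NPCs, 142 to 159 in ASTs and 85.3 to 98.5 in P0-NPCs. Of the 5 fibroblast markers Col1a1 was 131 to 178 FPKM in ASTs and 2.39 to 3.54 in A-iSCs, Dcn and Lum were under 1 FPKM in both, and Pdgfra, also a marker of oligodendrocyte precursors, was 0.305 to 0.451 in ASTs and 4.49 to 7.14 in A-iSCs.

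Id1, a widely used readout of BMP signalling, had the widest range of the family. Its level was 288, 433 and 289 FPKM in the 3 ASTs, 228, 190 and 130 in A-iSCs, 14.5, 13.9 and 13.7 in P56-NPCs and 71.4, 62.8 and 61.9 in P0-NPCs. The groups did not overlap, in the order ASTs, A-iSCs, P0-NPCs and P56-NPCs, and AST replicate 2 stood above the other ASTs.

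Id3, which often acts together with Id1 in progenitors and blood vessels, followed the same order. Its level was 253, 336 and 250 FPKM in ASTs, 249, 243 and 180 in A-iSCs, 20.9, 25.2 and 16.6 in P56-NPCs and 103, 99 and 103 in P0-NPCs. The highest A-iSC sample reached 249 FPKM and the lowest AST 250, so these neighbours barely separated, while both NPC groups lay clearly lower.

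Id2, known from neuronal and glial precursors and from immune cells, was the member with the smallest spread across groups. Its level was 74.2, 84.1 and 73.8 FPKM in ASTs, 142, 143 and 132 in A-iSCs, 79.1, 79.3 and 66.9 in P56-NPCs and 104, 90.1 and 125 in P0-NPCs. A-iSCs were highest and P0-NPCs next, whereas the ranges of ASTs and P56-NPCs overlapped.

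Id4, known from neural stem cells and from astrocyte and oligodendrocyte lineages, had an order of its own. It stood at 35, 41.8 and 35.3 FPKM in ASTs, 43.6, 37.7 and 50.2 in A-iSCs, 106, 97.3 and 110 in P56-NPCs and 24.4, 23.8 and 25.2 in P0-NPCs. P56-NPCs were highest and P0-NPCs lowest, and the ranges of ASTs and A-iSCs overlapped between them. The plot of the Id genes in each sample shows these 4 patterns side by side.

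**Figure D1:**
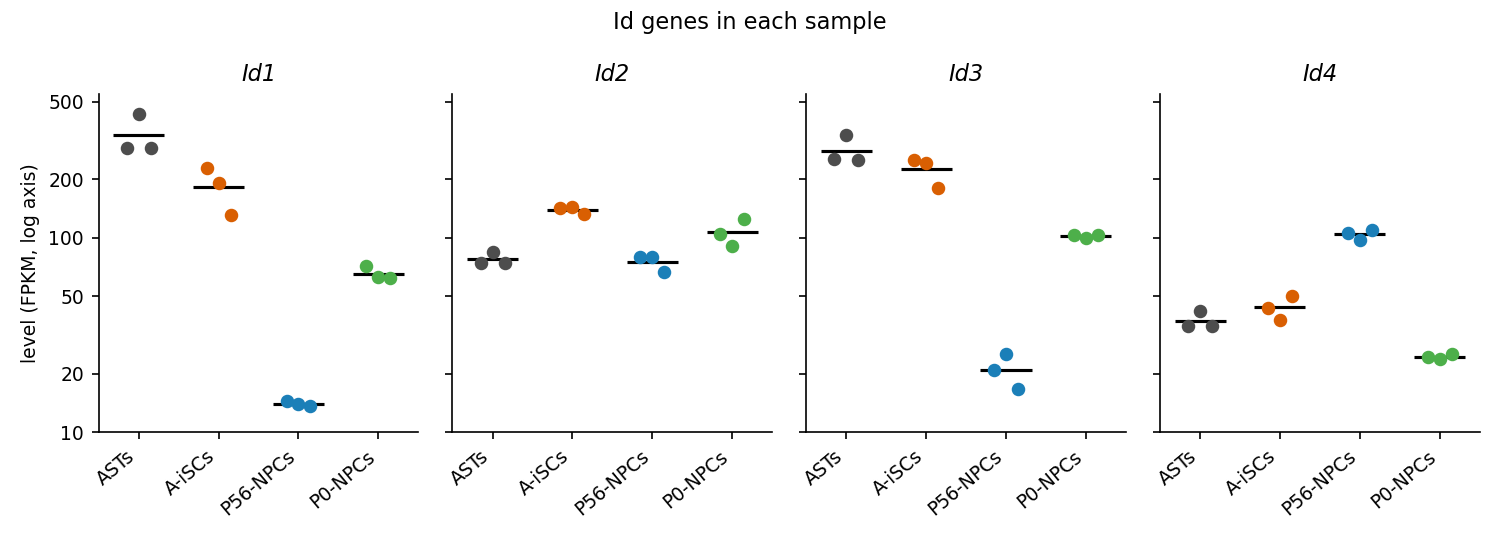
Level of each Id gene in every sample, in FPKM on a log axis, with 1 panel per gene. Points are the 3 samples of a group and the line is their mean. Id1 lies at 288 to 433 FPKM in ASTs and at 13.7 to 14.5 in P56-NPCs, while Id4 is highest in P56-NPCs (97.3 to 110).

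The comparison of A-iSCs with ASTs sets spheres at day 5 against the monolayer at day 0. No monolayer at day 5 was among the samples, so sphere culture and time in culture cannot be told apart. Of the 4 Id genes, Id2 rose, Id1 fell, and Id3 and Id4 did not pass the test, which was limma on log2(FPKM + 1) with a Benjamini-Hochberg adjusted p under 0.05 over all tested genes. Id2 went from 77.4 ± 5.82 to 139 ± 6.28 FPKM (SD, n = 3), a log2 fold change of 0.84 with a standard error of 0.12 (limma, adjusted p = 0.00107). Id1 went from 336 ± 83.4 to 183 ± 49.4 FPKM (SD, n = 3), a log2 fold change of -0.89 with a standard error of 0.26 (limma, adjusted p = 0.0236). Id3 stood at 279 ± 48.7 and 224 ± 38.2 FPKM (SD, n = 3), with a log2 fold change of -0.32 and a standard error of 0.20 (limma, adjusted p = 0.208). Id4 stood at 37.4 ± 3.82 and 43.8 ± 6.25 FPKM (SD, n = 3), with a log2 fold change of 0.22 and a standard error of 0.15 (limma, adjusted p = 0.236). Of all 14087 genes tested, 25.2% were called higher and 29.6% lower, so a call of 1 member in each direction is close to that background, and the median log2 fold change of all genes was -0.06. The Id1 call was kept in 4 of the 6 fits with a sample left out. It was lost without AST replicate 2 (log2 fold change -0.69, limma adjusted p = 0.0643) and without A-iSC replicate 2 (-0.94, adjusted p = 0.0564). It was also lost without the filter on low values (-0.89, limma adjusted p = 0.0609). The same held with scaling by library size alone, where the change was -0.67 (limma, adjusted p = 0.0528). With that scaling Id4 was called higher, at 0.43 (limma, adjusted p = 0.0315). A-iSC replicate 3, in which Id1 and Id3 were lowest among the A-iSCs, also had the highest Gfap level, 1483 FPKM against 658 and 769. The summed microglial markers were higher and Col1a1 was lower in A-iSCs than in ASTs, as given above, and the part of either in the Id changes was not tested. In such bulk samples fewer cells of a type and less RNA per cell cannot be told apart.

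P56-NPCs differed from ASTs in 3 of the 4 members. Id1 and Id3 were lower, Id4 was higher, and the Id2 change did not pass the test. Mean Id1 was 24 times higher in ASTs than in P56-NPCs, where it stood at 14 ± 0.44 FPKM (SD, n = 3), and its log2 fold change was -4.46 with a standard error of 0.16 (limma, adjusted p = 4.02e-07). Mean Id3 was 13.4 times higher in ASTs than in P56-NPCs (20.9 ± 4.29 FPKM, SD, n = 3), a log2 fold change of -3.68 (limma, adjusted p = 1.44e-06). Id4 reached 105 ± 6.65 FPKM (SD, n = 3) in P56-NPCs, 2.8 times the AST mean, a log2 fold change of 1.46 (limma, adjusted p = 7.69e-06). Id2 stood at 75.1 ± 7.12 FPKM (SD, n = 3), a log2 fold change of -0.04 with a standard error of 0.10 (limma, adjusted p = 0.695). The sign of this small Id2 difference turned without AST replicate 2 (0.02) or P56-NPC replicate 3 (0.04), and under scaling by library size alone it was called lower (-0.38, limma adjusted p = 0.00626). Of 15146 genes tested, 39.1% were higher and 39.8% lower. Oligodendrocyte markers and the mitochondrial share moved with this group, as given above. Summed astrocyte markers were 2834 to 3072 FPKM in P56-NPCs, beside 143 to 161 in ASTs, ependymal markers 225 to 298 beside 49.1 to 62.3, and oligodendrocyte precursor markers 54 to 62.7 beside 3.1 to 3.45. The part of all these in the Id differences was not tested.

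In P0-NPCs against ASTs all 4 members passed the test, 3 lower and Id2 higher. Id1 stood at 65.4 ± 5.24 FPKM (SD, n = 3), a log2 fold change of -2.32 (limma, adjusted p = 8.15e-06). Id3 stood at 102 ± 2.52 FPKM (SD, n = 3), a log2 fold change of -1.43 (limma, adjusted p = 3.59e-05). Id4 stood at 24.5 ± 0.671 FPKM (SD, n = 3), a log2 fold change of -0.59 (limma, adjusted p = 0.000644). Id2 stood at 106 ± 17.5 FPKM (SD, n = 3), a log2 fold change of 0.44 with a standard error of 0.14 (limma, adjusted p = 0.0178). The Id2 call was lost under upper-quartile scaling (0.34, limma adjusted p = 0.065), and without AST replicate 1 (0.42), AST replicate 3 (0.41) or P0-NPC replicate 3 (0.32). Of 15010 genes tested, 38.1% were called higher and 40.9% lower. Neuronal markers summed to 761 to 937 FPKM in P0-NPCs and to 88.1 to 124 in ASTs, endothelial markers to 73.7 to 76.3 and 4.46 to 4.55, and pericyte markers to 110 to 124 and 9.76 to 12.5. The part of these cell types in the Id differences was not tested. The 3 comparisons with ASTs share the same AST samples, so their values are not independent.

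A-iSCs were compared with each NPC group to ask how near the spheres came to brain-derived cells, and the Id genes differed from both. Against P56-NPCs, Id1 was 13 times and Id3 10.7 times higher in A-iSCs by group means, with log2 fold changes of 3.58 (limma, adjusted p = 8.06e-06) and 3.36 (limma, adjusted p = 8.31e-06). Id2 was also higher in A-iSCs (0.88, limma adjusted p = 0.00042), and Id4 was lower (-1.24, limma adjusted p = 0.000164). With scaling by library size alone, which moved the median of all genes from 0.03 to 0.49, these became 4.10 for Id1, 3.90 for Id3, 1.44 for Id2 and -0.69 for Id4. Here 30.1% of 15044 genes were called higher and 30.9% lower. Against P0-NPCs all 4 members were called higher in A-iSCs, where 31.5% of 15170 genes were called higher and 33.6% lower. The log2 fold changes were 1.43 for Id1 (limma, adjusted p = 0.000539), 1.11 for Id3 (adjusted p = 0.000439), 0.81 for Id4 (adjusted p = 0.000875) and 0.40 for Id2 (adjusted p = 0.0451). The Id2 call was the least firm of these. It was lost without the filter (0.40, limma adjusted p = 0.0829) and with the replicate block (0.40, limma adjusted p = 0.0978). It was also lost with scaling by library size alone (0.32) and under upper-quartile scaling (0.37). The same held without A-iSC replicate 1 (0.38), A-iSC replicate 2 (0.37), P0-NPC replicate 1 (0.39) or P0-NPC replicate 2 (0.28). Other cell types moved with these comparisons too. In A-iSCs the oligodendrocyte markers named above summed to 4.64 to 5.22 FPKM and neuronal markers to 47.5 to 63.6. Endothelial and pericyte markers summed to 2.15 to 3.24 and 3.93 to 5.29 FPKM, beside 73.7 to 76.3 and 110 to 124 in P0-NPCs. Ependymal markers summed to 59.6 to 71.7 FPKM, beside 225 to 298 in P56-NPCs. Astrocyte markers summed to 1211 to 2466 FPKM, beside 2834 to 3072 in P56-NPCs and 238 to 303 in P0-NPCs. Other sums of the NPC groups, the microglial sums and the mitochondrial share are given elsewhere in this text. The part of all these in the Id differences was not tested.

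The NPC preparations also differed from each other in all 4 members. P56-NPCs had less Id1 (log2 fold change -2.14, limma adjusted p = 2.06e-07), Id3 (-2.25, limma adjusted p = 2.96e-06) and Id2 (-0.49, limma adjusted p = 0.00876) than P0-NPCs. They had more Id4, by 2.05 on the log2 scale (limma, adjusted p = 1.87e-07), or 4.27 times by group means. With scaling by library size alone, which moved the median of all genes from 0.01 to -0.53, the values were -2.74 for Id1, -2.86 for Id3, -1.11 for Id2 and 1.43 for Id4. Of 15394 genes tested here, 39.7% were called higher and 39% lower. Neuronal markers summed to 195 to 238 FPKM in P56-NPCs and 761 to 937 in P0-NPCs, endothelial markers to 4.37 to 4.79 and 73.7 to 76.3, pericyte markers to 11 to 11.8 and 110 to 124, astrocyte markers to 2834 to 3072 and 238 to 303, and ependymal markers to 225 to 298 and 69.2 to 88.6. Oligodendrocyte markers and the mitochondrial share were far higher in P56-NPCs, as given above, and the part of all these in the Id differences was not tested. The plot of fold changes places the 4 members under each comparison.

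**Figure D2:**
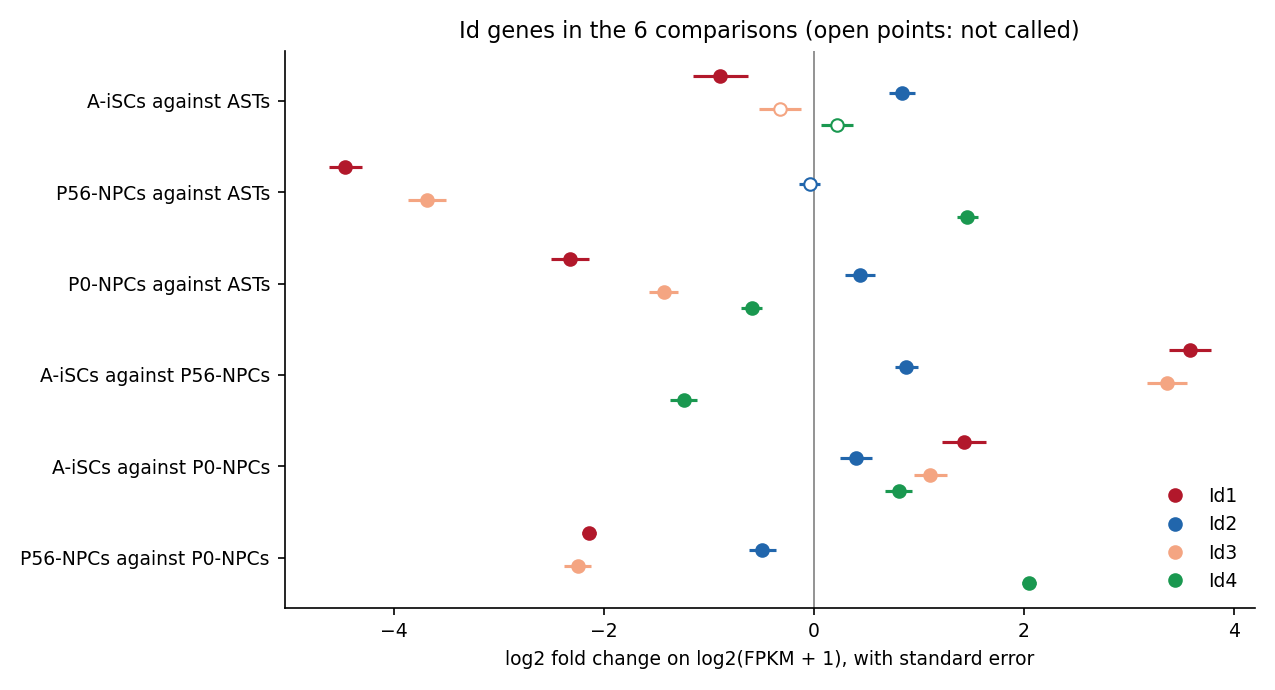
Log2 fold change of each Id gene on the log2(FPKM + 1) scale in the 6 comparisons, with standard errors as bars. Filled points passed the test and open points did not. Id4 lies on the opposite side of 0 from Id1 and Id3 in every comparison with P56-NPCs.

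Because FPKM is per length, the members can also be set against each other within a sample. The summed FPKM of the 4 Id genes was 731 ± 142 in ASTs, 590 ± 88 in A-iSCs, 298 ± 20.3 in P0-NPCs and 215 ± 6.57 in P56-NPCs (SD, n = 3 each). A-iSCs (492 to 662) overlapped ASTs (648 to 894), with a difference in the mean log2 sum of -0.30 (exact two-sided permutation test, p = 0.3). No other pair of groups overlapped, and each of these pairs gave p = 0.1 in the exact permutation test, the smallest that 3 samples against 3 allow. After Benjamini-Hochberg adjustment over the 36 tests made on sums, shares and ratios this became 0.113, so none of them could pass a threshold of 0.05.

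The make-up of the family also differed between groups. In ASTs the largest share came from Id1 (45.7 ± 2.29% of the summed FPKM, SD, n = 3) and the next from Id3 (38.3 ± 0.718%). In A-iSCs Id1 gave 30.6 ± 4.01% and Id2 23.9 ± 2.71%, against 10.7 ± 1.16% for Id2 in ASTs, while Id3 gave 37.9 ± 1.52% (SD, n = 3 each). These Id1 and Id2 shares did not overlap between ASTs and A-iSCs (exact two-sided permutation test, p = 0.1, adjusted 0.113). P56-NPCs drew 48.8 ± 4.08% from Id4 and 35 ± 2.41% from Id2, with only 6.53 ± 0.0886% from Id1 (SD, n = 3 each). P0-NPCs drew 35.5 ± 3.61% from Id2, 34.3 ± 1.57% from Id3, 22 ± 2.07% from Id1 and 8.22 ± 0.363% from Id4 (SD, n = 3 each). The shares depend on the gene length used. The deposited lengths count all annotated exons, 2438 bases for Id2 and 3849 for Id4, whereas a single coding Id2 transcript has 1270 bases. With the length of 1 coding transcript per gene, Id2 gave 46 to 50.4% and Id4 32.2 to 39.5% in P56-NPCs, so the order of these members within that group turned. In A-iSCs the order of Id1 and Id2 turned as well, to means of 26.3% (22.5 to 29.8%) for Id1 and 31.7% (28.8 to 35.3%) for Id2, and Id3 stayed above both means at 36.7% (35.2 to 38.3%).

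**Figure D3:**
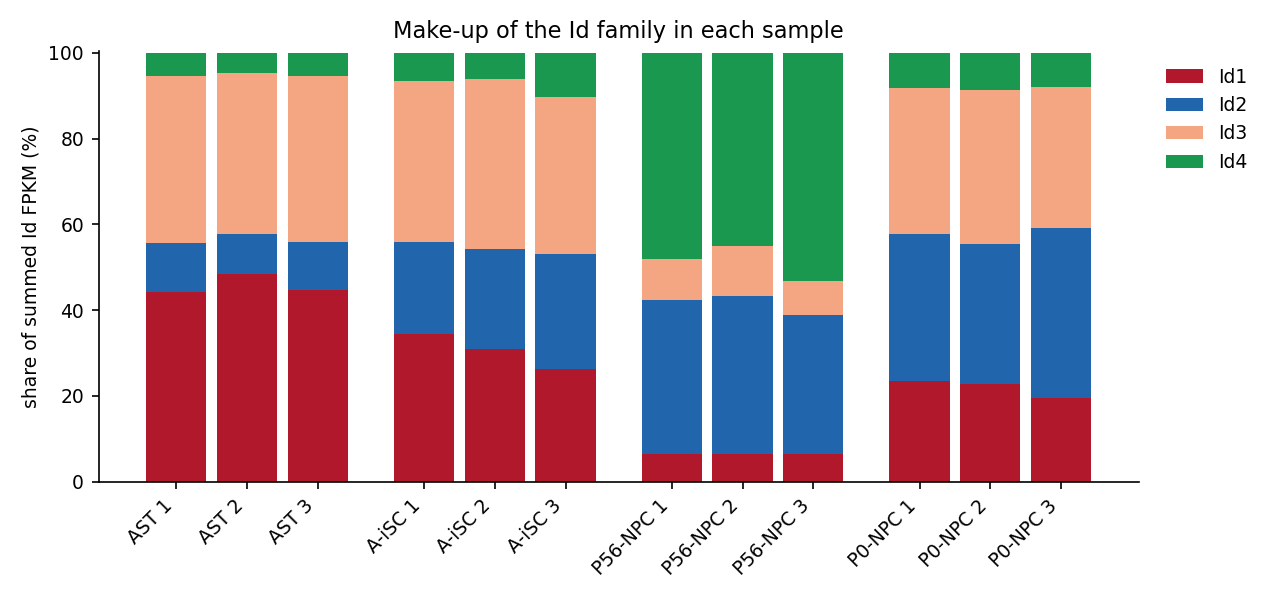
Share of each Id gene in the summed FPKM of the 4, in percent, for each of the 12 samples as a stacked bar from 0 to 100. Id1 takes 44.3 to 48.4% in ASTs and 26.4 to 34.4% in A-iSCs, and Id4 takes 45.1 to 53.2% in P56-NPCs.

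Among the 107 genes that the deposited table annotates as bHLH factors, ranked by mean FPKM, the Id genes stood near the top. In ASTs Id1 ranked 1, Id3 2, Id2 4 and Id4 7. In A-iSCs they filled ranks 1 (Id3), 2 (Id1), 3 (Id2) and 5 (Id4), with Olig1 between Id2 and Id4. In P0-NPCs Id2 ranked 1 and Id3 2, followed by the neurogenic factors Neurod2, Neurod6 and Neurod1, then Id1 at 6 and Id4 at 16. In P56-NPCs Olig1 ranked first, Id4 2, Olig2 3 and Id2 4, while Id3 came at 9 and Id1 at 17. These ranks use the deposited gene lengths, and the order of Id2 with Id4 in P56-NPCs and with Id1 in A-iSCs turns with the other length described above.

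The E proteins, which the Id proteins bind, were expressed in every group. Tcf3 stood at 24.7 ± 4.23 FPKM in ASTs and 31.3 ± 5.52 in A-iSCs, Tcf12 at 7.75 ± 1.18 and 10.5 ± 4.23, and Tcf4 at 7.17 ± 0.165 and 12.1 ± 3.04 (SD, n = 3 each). In A-iSCs against ASTs, where 25.2% of all genes were higher, 1 of the 3 was called, Tcf4, which rose by 0.65 on the log2 scale (limma, adjusted p = 0.0136), and the values for Tcf3 and Tcf12 were 0.33 and 0.35. Tcf3 was also called with scaling by library size alone, and without A-iSC replicate 3 (0.48, limma adjusted p = 0.0300). In P0-NPCs all 3 were higher than in ASTs, as were 38.1% of all genes, with Tcf4 at 35.7 ± 2.67 FPKM (SD, n = 3) and a log2 fold change of 2.17 (limma, adjusted p = 2.27e-07). In P56-NPCs Tcf4 was higher (0.44) and Tcf3 lower (-0.68) than in ASTs, and Tcf12 was not called (-0.08). The summed Id level divided by the summed E protein level was 18.3 ± 2.18 in ASTs, 11 ± 1.93 in A-iSCs, 6.67 ± 0.295 in P56-NPCs and 3.63 ± 0.127 in P0-NPCs (SD, n = 3 each). No pair of groups overlapped in this ratio, and each of the 6 comparisons gave p = 0.1 (exact two-sided permutation test, adjusted 0.113). The size of the ratio depends on the gene lengths, which are 27382 bases for Tcf4 and 15529 for Tcf12. With fragments not divided by length, A-iSCs and P56-NPCs overlapped, with a difference in the mean log2 ratio of 0.35 (exact two-sided permutation test, p = 0.4). Ratios of RNA say nothing of the amounts of protein. The plot of Id against E protein sums shows P0-NPCs apart from P56-NPCs along the E protein axis.

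**Figure D4:**
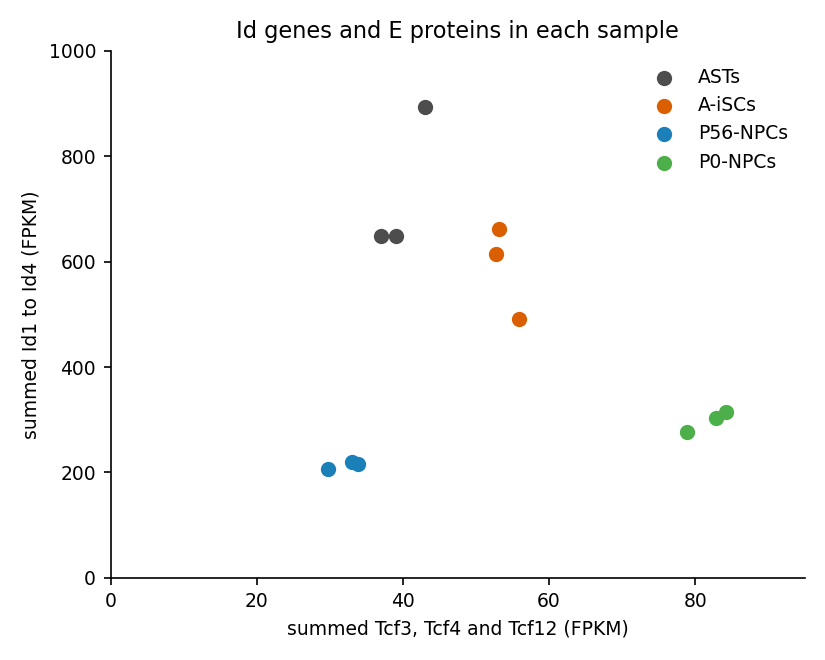
Summed FPKM of the 4 Id genes (vertical axis) against the summed FPKM of Tcf3, Tcf4 and Tcf12 (horizontal axis), with 1 point per sample. P56-NPCs lie at 207 to 220 FPKM of Id and 29.7 to 33.8 of E proteins, and P0-NPCs at 276 to 315 and 78.9 to 84.2.

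Of the 12 listed bHLH factors of neurons and glia, the partners whose dimers Id proteins limit, 9 were under the filter in both ASTs and A-iSCs. Olig2, an oligodendrocyte lineage factor, was called higher in A-iSCs (0.41, limma adjusted p = 0.0178), and Bhlhe22, a neuronal factor that passed the filter only through ASTs, stood at 2.63 FPKM on average in ASTs and 0.178 in A-iSCs. The Olig2 call was lost under upper-quartile scaling (0.29) and without A-iSC replicate 1 (0.36), A-iSC replicate 2 (0.40), AST replicate 1 (0.39) or AST replicate 3 (0.41). In P0-NPCs the neurogenic factors Neurod1, Neurod2 and Neurod6 stood at 66.1, 84.4 and 76.7 FPKM on average, beside 0.186, 0 and 0 in ASTs. These and 4 further neurogenic factors passed the filter only through P0-NPCs, so that no count of calls is given. Olig1 and Olig2 were well above the filter in all groups and were lower in P0-NPCs than in ASTs (-0.93 and -1.15, limma adjusted p = 0.00374 and 0.000109) and higher in P56-NPCs (2.02 and 1.53, limma adjusted p = 2.47e-06 and 1.23e-06).

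BMP ligands reach the Id genes through receptors and through Smad1, Smad5 and Smad9, which act with Smad4. Of the 7 listed ligands, Bmp4, Bmp6 and Bmp7 passed the filter in A-iSCs or ASTs. Bmp4 stood at 14.7 ± 0.736 FPKM in ASTs and 0.745 ± 0.216 in A-iSCs (SD, n = 3). It passed the filter only through ASTs, so no test is given. Bmp6 went from 25.8 ± 3.29 to 11.5 ± 1.07 FPKM (SD, n = 3), a log2 fold change of -1.09 (limma, adjusted p = 0.000441). Bmp2, Bmp5, Bmp10 and Gdf2 were under the filter. Bmp7 stood at 0.552 to 0.787 FPKM in ASTs and 0.889 to 1.15 in A-iSCs. It passed the filter only through A-iSCs, so its test is not given either. Of the 8 receptors 7 were tested, 2 were called higher (Bmpr1b at 0.94 and Bmpr1a at 0.65) and 3 lower (Eng at -1.28, Acvr1 at -1.04 and Acvr2a at -0.42), beside 25.2% and 29.6% of all genes. The Bmpr1b call was lost without AST replicate 2 (0.85). The Bmpr1a call was lost under upper-quartile scaling (0.52) and without AST replicate 1 (0.66), 2 (0.61) or 3 (0.68), and the Acvr2a call with scaling by library size alone (-0.25), without A-iSC replicate 1 (-0.35) or 2 (-0.37) and without AST replicate 1 (-0.41) or 3 (-0.38). Neither was called without the filter on low values. Of the 4 Smads 1 was called, Smad1, higher by 0.40 (limma, adjusted p = 0.0147), and the others had values of 0.26 (Smad5), 0.00 (Smad4) and -0.30 (Smad9). Smad1 was not called under upper-quartile scaling (0.28), nor without A-iSC replicate 1 (0.36), AST replicate 1 (0.39) or AST replicate 3 (0.36), and Smad9 was called lower without A-iSC replicate 3 (-0.45).

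The BMP antagonists, mostly secreted proteins that hold the ligands away from their receptors form the next list. Nog went from 59.4 ± 10.7 FPKM in ASTs to 17.5 ± 1.8 in A-iSCs (SD, n = 3), a log2 fold change of -1.70 (limma, adjusted p = 0.000113). Fst stood at 15.6 ± 0.399 and 0.695 ± 0.264 FPKM and Grem1 at 8.46 ± 1.25 and 0.172 ± 0.0919 (SD, n = 3 each). Fst, Grem1, Chrdl1 and Sostdc1 passed the filter only through ASTs, so no count is given for the antagonists and no test for these genes.

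Other genes that BMP signalling is known to switch on were set beside the Id genes, and all 6 of this list were called lower in A-iSCs than in ASTs, with a median log2 fold change of -1.65. Smad6 and Smad7, inhibitory Smads, fell by 2.30 and 1.95 on the log2 scale (limma, adjusted p = 3.69e-05 and 2.82e-05). Smad6 stood at 34.9, 34.7 and 34.1 FPKM in ASTs and 7.68, 6.68 and 4.63 in A-iSCs. Msx2, a homeobox factor, fell by 2.03 (limma, adjusted p = 2.4e-05), Atoh8, a bHLH factor, by 1.35 (adjusted p = 0.00416) and Bambi, a decoy receptor, by 0.94 (adjusted p = 0.000336). The smallest change was that of Msx1 (-0.37, limma adjusted p = 0.0319), whose call was lost without the filter (adjusted p = 0.0707), under the replicate block (adjusted p = 0.0593), with scaling by library size alone (-0.22), and without A-iSC replicate 2 (-0.35), AST replicate 2 (-0.33) or AST replicate 3 (-0.34). Of the Id genes Id1 fell and Id2 rose in the same comparison, so the family did not share the single direction of these 6. Of all genes tested, 29.6% were called lower.

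**Figure D5:**
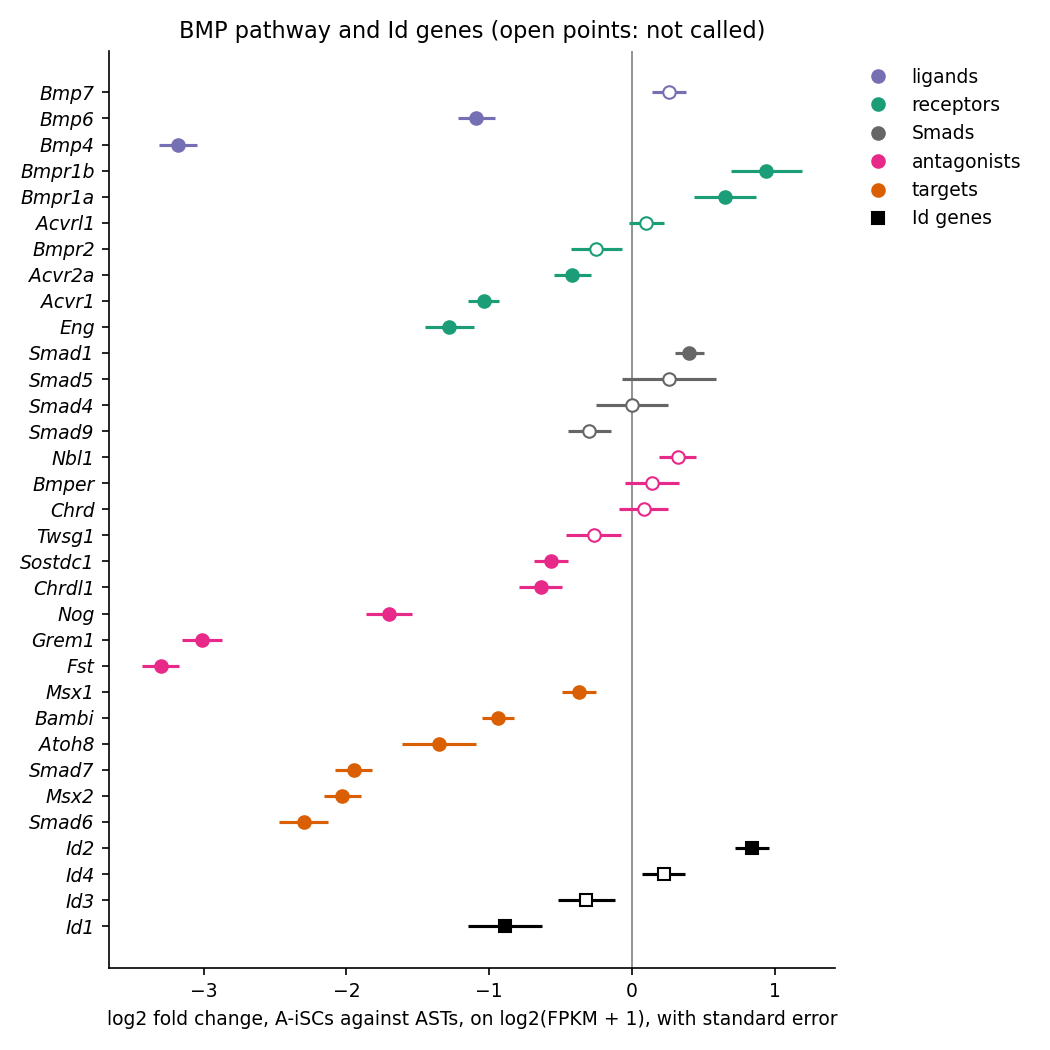
Log2 fold change of A-iSCs against ASTs on the log2(FPKM + 1) scale, with standard errors as bars, for BMP ligands, receptors, Smads, antagonists, target genes and the Id genes. Filled points passed the test. All 6 target genes lie between -2.30 and -0.37, while the Id genes lie between -0.89 and 0.84.

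In the NPC groups Msx1 was called higher than in ASTs (0.73 in P56-NPCs and 1.34 in P0-NPCs). Bambi and Smad7 were called lower in both groups, and Smad6 and Atoh8 in P0-NPCs. Of all genes tested, 39.8% were called lower in P56-NPCs and 40.9% in P0-NPCs. In P56-NPCs Smad6, Atoh8 and Msx2 were under 1 FPKM on average and passed the filter only through ASTs, as did Msx2 in P0-NPCs. For these no test is given, and no count or median over the list. Atoh8 stood at 56.1 FPKM on average in ASTs, 5.09 in P0-NPCs and 0.692 in P56-NPCs, beside 336, 65.4 and 14 FPKM for Id1. Smad7 was far less reduced than Id1 in P56-NPCs. It stood there at 15.4, 12.7 and 15.9 FPKM, beside 19.2 to 19.7 FPKM in ASTs (log2 fold change -0.40, limma adjusted p = 0.00616), while Id1 was 24 times lower.

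Id proteins are short-lived, and Usp1 removes the ubiquitin that marks them while Fzr1 brings them to the anaphase-promoting complex for degradation. Both genes were called lower in A-iSCs than in ASTs, as were 29.6% of all genes. Usp1 went from 18.8 ± 3.92 to 8.73 ± 3.16 FPKM (SD, n = 3), a log2 fold change of -1.05 (limma, adjusted p = 0.00961). Fzr1 went from 13 ± 1.77 to 9.41 ± 0.838 FPKM (SD, n = 3), a log2 fold change of -0.42 (limma, adjusted p = 0.0304). The Fzr1 call was lost with scaling by library size alone (-0.22) and without A-iSC replicate 1 (-0.35), A-iSC replicate 2 (-0.44), AST replicate 1 (-0.33) or AST replicate 3 (-0.42).

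The inhibitors of cyclin-dependent kinases include genes that E proteins activate and Id proteins oppose. Of the 6 listed, 4 were called lower in A-iSCs than in ASTs, as were 29.6% of all genes, and not all of these 4 are reported here. Cdkn1a, which encodes p21, went from 229 ± 10.7 to 69.6 ± 10.1 FPKM (SD, n = 3), a log2 fold change of -1.71 (limma, adjusted p = 8.69e-05). Cdkn2b went from 28.3 ± 0.919 to 9.78 ± 1.42 FPKM (SD, n = 3), a log2 fold change of -1.45 (limma, adjusted p = 8.06e-05). Cdkn1c passed the filter only through A-iSCs, at 0.872 FPKM on average in ASTs and 1.92 in A-iSCs, and its test is not given.

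Rap1gap, the gene through which Id proteins have been linked to Rap1, rose in A-iSCs. It stood at 1.51, 1.56 and 1.6 FPKM in ASTs, 3.28, 4.01 and 2.9 in A-iSCs, 16.3, 19 and 15.6 in P56-NPCs and 6.26, 8.07 and 5.52 in P0-NPCs. The 4 groups did not overlap, and their order was the reverse of the order of Id1 in ASTs, A-iSCs, P0-NPCs and P56-NPCs. The log2 fold change over ASTs was 0.77 in A-iSCs (limma, adjusted p = 0.00164), 1.56 in P0-NPCs (limma, adjusted p = 1.13e-05) and 2.80 in P56-NPCs (limma, adjusted p = 1.93e-07). Of the 14 listed genes, which hold Rap1a and Rap1b beside regulators of Rap1, 13 were tested in A-iSCs against ASTs. Rapgef5 was under the filter. The exchange factor Rapgef4 passed it only through A-iSCs (0.928 FPKM on average in ASTs and 1.93 in A-iSCs), so no count or median is given. Of the others Sipa1 (0.93) and Rap1gap were called higher, where 25.2% of all genes were higher and 29.6% lower. The most strongly lower were Sipa1l1 (-1.36), Rap1gap2 (-1.10) and Sipa1l3 (-0.95). The genes named here as called all encode GTPase-activating proteins.

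The genes whose level followed each member most closely were sought among 9697 protein-coding genes, by Pearson's r of log2(FPKM + 1) over the 12 samples. With only 4 groups these values mostly restate group means and are given as a description. Nearest to Id1 were Mmp14 (r = 0.992), Nek6 (0.991) and Atoh8 (0.990). Nearest to Id3 were Fkbp7 (0.990), Akr1a1 (0.985) and Id1 itself (0.984). Nearest to Id4 were Scp2 (0.992), Dnajb2 (0.989) and Ubl3 (0.988), each highest in P56-NPCs. For Id2 the likeness was weaker, with Patl1 (0.938), Slc7a8 (0.933) and Bcl2l11 (0.928) in front. Within the family, r was 0.98 for Id1 with Id3, and between -0.72 and 0.45 for every other pair.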

How the data were processed

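RNA of 12 samples (4 groups of 3) was converted by the authors to libraries (NEBNext Ultra) and read from both ends on an Illumina HiSeq. The authors deposited 1 table of FPKM for 55862 genes, scaled between samples, with gene lengths and no counts. In the submitters' processing notes Bowtie 0.12.2 and mm8 are listed, but GENCODE M21 shares 55154 identifiers with the table and places 54899 of them identically, so coordinates are on GRCm38. The counting program is not given in the sources used here. Fragments recovered from FPKM and gene length were whole for 100% of the values checked (tolerance 0.01).

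Groups were compared pairwise with limma 3.58.1 (R 4.3.3; lmFit, eBayes with trend) on log2(FPKM + 1), where a gene entered if its mean FPKM reached 1 in either group, with Benjamini-Hochberg adjustment over all tested genes. Fold changes on this scale understate the change of low genes. The methods of the study name DESeq2, which was not run here. Sums, shares and ratios were compared by exact two-sided permutation tests in Python 3.11.15 (scipy 1.17.1). The fit was tested on simulated data. As alternatives the model held a replicate block or all groups, the pseudocount was 0.1, the filter was dropped, the scaling was by upper quartile or by library size alone, the recovered fragments were fitted by limma-voom, and each sample was omitted in turn. The length of 1 coding transcript was added after the data were seen.

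The Id genes and the gene lists were chosen with earlier results of these data known. All Id genes, E proteins, Smads, BMP targets and turnover genes are named, and of each other list the 3 called genes with the largest and the 3 with the smallest change, and genes under the filter. A few listed genes are not reported here and enter no marker sum. No sample was left out, and there were 0 unused columns of per-sample values.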

Additional observations from a re-analysis of the deposited data

How the results depend on the processing

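Over the 4 Id genes, 6 comparisons and 7 alternatives other than left-out samples, 159 of 168 results kept their direction and their side of the threshold, 7 lost a call and 2 gained one. With single samples left out, 133 of 144 were kept, 9 lost a call and 2 small values turned sign. The Id1 change of A-iSCs against ASTs was not called without the filter (-0.89) or with library size scaling (-0.67), and ran from -1.06 to -0.66 with samples left out. Id2 in A-iSCs against P0-NPCs was not called without the filter (0.40), with the replicate block (0.40), library size scaling (0.32) or upper-quartile scaling (0.37), and ran from 0.28 to 0.52. Id2 in P0-NPCs against ASTs was not called with upper-quartile scaling (0.34) and ran from 0.32 to 0.56. Library size scaling called Id2 lower in P56-NPCs than in ASTs (-0.38, with samples left out -0.09 to 0.04) and Id4 higher in A-iSCs than in ASTs (0.43). That scaling moved the median of all genes to 0.13 for A-iSCs and -0.34 for P56-NPCs against ASTs. The cause of these losses was not tested.

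Among the listed genes in A-iSCs against ASTs, Smad4 turned to -0.12 with upper-quartile scaling and ran from -0.25 to 0.14 with samples left out, and Smad5 ran from -0.13 to 0.50. With upper-quartile scaling the calls of Smad1 (0.28) and Olig2 (0.29) were lost. Library size scaling added a call for Tcf3 (0.53) and took away that of Fzr1 (-0.22).

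The difference in Id2 share turned from -11.1 to 1.78 percentage points in A-iSCs against P56-NPCs when fragments were not divided by length, and from -0.579 to 3.81 in P56-NPCs against P0-NPCs with the length of 1 coding transcript, where left-out samples gave -2.01 to 1.45. The difference in Id3 share of A-iSCs against ASTs ran from -1.28 to 0.207, and that in Id4 share of A-iSCs against P0-NPCs from -1.86 to 0.171. With 3 samples a group these tests could not pass 0.05.

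The replicate numbers showed no steady pairing of the samples. Same-numbered samples of A-iSCs and ASTs correlated at -0.41, 0.35 and 0.45, and those of the other comparisons between -0.14 and 0.10. For A-iSCs and ASTs the own number was the best match in replicates 2 and 3 but not in replicate 1, so pairing there is not settled. The replicate block changed no other Id call. Depth limits none of the Id values, but Grem1 in A-iSCs rested on 11 to 23 fragments a sample.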
